A study of Homo sapiens with 6 samples.

Results

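The 10 listed genes of the Notch pathway were followed in control and FAM60A-knockout HEK293 cells. They are the receptors NOTCH1, NOTCH2 and NOTCH3, the ligands JAG1, JAG2, DLL1 and DLL3, and the targets HES1, HES4 and HEY1. The 10 genes were chosen by name, matched to their Ensembl identifiers, and make up 10 of the 62754 genes counted. RNA-seq was performed on 3 libraries of control cells and 3 of cells with FAM60A knocked out. HEK293 cells grow attached and come from embryonic kidney, and one label field gives the line as HEK293T, a variant with the SV40 large T antigen. For the knockout, cells received Cas9 and several guide RNAs against FAM60A and were kept as a puromycin-selected pool, so a mixture of edited alleles is possible. The labels call the other cells only control, and whether they received a vector or puromycin is not given in the sources used here. The protein of FAM60A, a gene now named SINHCAF, belongs to the Sin3/HDAC complex, which removes acetyl groups from histones and represses transcription. The comparison asks how the transcripts of the Notch pathway differ between cells with and without a disrupted FAM60A gene.

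Notch signaling passes between touching cells. Jagged (JAG) and Delta-like (DLL) ligands on one cell bind a Notch receptor on its neighbour, the receptor is cut by ADAM proteases and then by gamma-secretase, and its intracellular domain moves to the nucleus. There it joins the DNA-binding protein RBPJ and Mastermind-like coactivators, and genes of the HES and HEY families are switched on. These targets encode repressors that hold back differentiation genes, and in the developing kidney the pathway is known for its part in nephron patterning.

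The targets HES1 and HES4 are shown with the DNA upstream of their start sites, because RBPJ is known to recognise the letters GTGGGAA and both genes are textbook Notch targets. The sequences are the 250 bases before the start site on the gene's own strand, from RefSeq on GRCh38.p14. They lie at chr3:194135898-194136147 (plus strand) for HES1 and at chr1:1000098-1000347 (minus strand) for HES4. Capitals mark each TGGGAA, with the G before it where there is one.
HES1: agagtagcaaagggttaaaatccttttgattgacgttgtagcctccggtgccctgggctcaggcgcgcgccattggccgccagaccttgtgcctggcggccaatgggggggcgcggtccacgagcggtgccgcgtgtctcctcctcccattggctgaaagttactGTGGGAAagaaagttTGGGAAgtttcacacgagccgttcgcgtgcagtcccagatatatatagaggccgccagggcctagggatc
HES4: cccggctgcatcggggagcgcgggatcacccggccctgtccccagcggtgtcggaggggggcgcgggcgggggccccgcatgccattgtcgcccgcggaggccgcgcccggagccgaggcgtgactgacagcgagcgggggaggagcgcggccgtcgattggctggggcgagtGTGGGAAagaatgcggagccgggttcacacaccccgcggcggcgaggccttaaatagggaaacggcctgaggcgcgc

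In HES1, GTGGGAA began 85 bases upstream of the start, and a second TGGGAA began 70 bases upstream. In HES4, GTGGGAA began 77 bases upstream. Both genes shared the 12-base run TGTGGGAAAGAA, which began 86 bases upstream in HES1 and 78 bases upstream in HES4. Across all 35116 RefSeq windows of 300 bases (250 before and 50 after a start, both strands searched), that run was found in 8 windows. GTGGGAA stood in 6.25% of the windows, and TGGGAA, which every GTGGGAA contains, in 24.0%. Of the 7 members with a window, HES1 and HES4 held these letters. No window was used for DLL1, DLL3 or HEY1. The letters CACGAG, the N-box that HES proteins are known to bind, began 132 and 58 bases upstream in HES1, and were also found in the windows of NOTCH2 and NOTCH3, against 6.78% of all windows. These matches describe the sequence and not the occupancy of any site.

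Depth was even across the libraries. The 3 controls summed to 92736586, 93172005 and 93346824 counts, and the 3 knockout libraries to 88361827, 91279417 and 90771711, in order of replicate number. All later triplets of values keep this order. Levels are given below as CPM (the counts-per-million unit) after TMM scaling of the library sizes, and 3 counts corresponded to between 0.0309 and 0.0356 CPM. The targeted gene was measured first. FAM60A stood at 113, 106 and 132 CPM in the controls and at 67.5, 66.0 and 61.7 CPM in the knockout libraries, with no overlap. Its log2 fold change was -0.85 with a standard error of 0.11 (edgeR adjusted p = 0.00864), and 5449 to 5793 FAM60A counts remained in each knockout library. Without any 1 knockout replicate the edgeR adjusted p was between 0.0571 and 0.0736, within 8.01e-10 to 0.0736 over the 12 alternatives. In bulk RNA from a pool, fewer cells with a transcript and less transcript per cell cannot be told apart.

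Control replicate 3 stood apart from the other controls, and most levels below are therefore given with this library visible. Its FAM60A level was that of a control, but whether it was otherwise handled as its label says cannot be told from the files, and every control mean and fold change below includes it unless stated. Among the 21031 genes that averaged 10 counts or more, control replicates 1 and 2 differed by at least 2-fold at 291 genes (1.38%), and the knockout libraries differed among themselves at 1.70 to 2.26% of genes. Control replicate 3 differed by that much from control replicates 1 and 2 at 24.2 and 23.6% of genes, and from the knockout libraries at 14.1 to 16.1%. Among the 10 members, JAG2 and DLL3 differed at least 2-fold between control replicate 3 and both other controls, NOTCH3 and HES4 between control replicate 3 and 1 of them, and none did between control replicates 1 and 2 or within the knockout group. Mitochondrial transcripts took 4.63, 3.97 and 5.57% of the counts in control and 9.15, 8.70 and 10.1% in knockout libraries. The part of the mitochondrial difference in the results below was not tested. Nothing in the labels says that the libraries came from separate cultures, so p-values measure the spread between these samples, which may be technical.

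With all 6 libraries, NOTCH2 rose and HEY1 fell in the knockout cells, while the other 8 members did not pass the test (edgeR quasi-likelihood test, adjusted p of at most 0.05 over 20992 genes tested). All 10 members were counted deeply enough to be tested. Of all genes tested, 7.96% were called higher and 8.67% lower, so 1 of 10 members in each direction was near the background. HEY1 also passed a threshold of at least 1 on the absolute log2 scale, which 7.06% of genes did in either direction together with the adjusted p. Without control replicate 3, 7 members were called. NOTCH2, JAG2, DLL1 and DLL3 were then higher, against 32.4% of all genes, and NOTCH3, JAG1 and HEY1 lower, against 33.2%. Without control replicate 1 or 2 edgeR called 1 member, HEY1, where 4.89 and 3.71% of all genes were called. Without knockout replicate 1, 2 or 3 it called none, where 0.763, 2.31 and 0.870% of all genes were called and 3 members each time had an unadjusted p under 0.05, against 22.6, 25.3 and 23.0% of all genes. DESeq2 on all 6 libraries called 5 members, with NOTCH2, JAG2 and DLL1 higher (background 11.9%) and NOTCH3 and HEY1 lower (background 15.0%).

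By position alone, NOTCH1, NOTCH2, JAG2 and DLL1 were higher in every knockout library than in any control, where 21.5% of all genes tested showed this. NOTCH3 and HEY1 were lower in every knockout library, against 20.1% of all genes. The groups overlapped for JAG1, DLL3, HES1 and HES4. The median absolute log2 fold change was 0.60 over the members and 0.39 over all genes tested. Over the wider Notch list described below, without the members, it was 0.38. The members are few and were chosen with earlier results of these data known, so nothing is read from their higher median. Two-sided exact permutation tests gave p = 0.1 for each of the 6 members without overlap, the smallest value that 3 against 3 libraries allow, 0.3 for JAG1, 0.4 for DLL3 and HES4, and 1 for HES1.

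**Figure D1:**
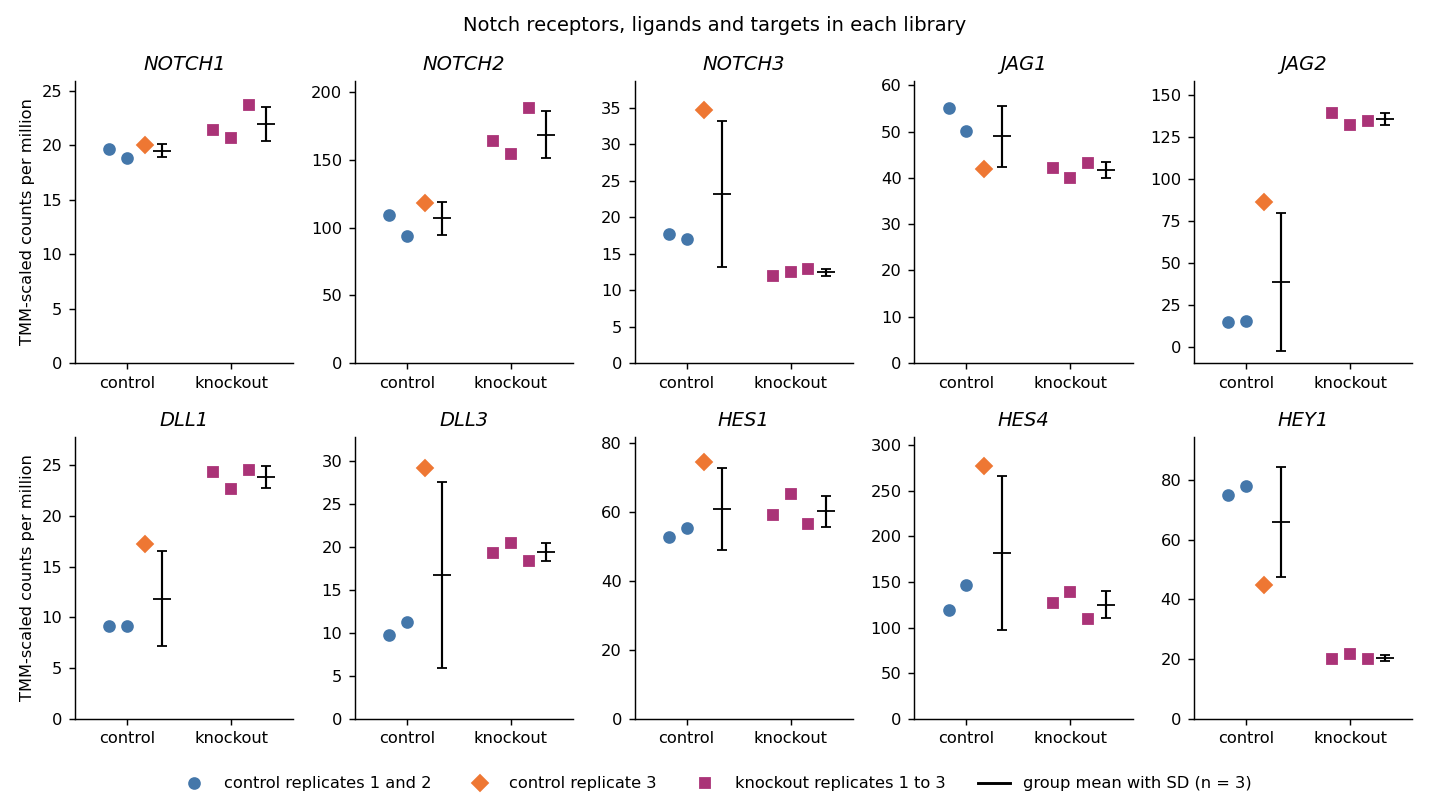
Level of each of the 10 members in each library, in TMM-scaled CPM on a linear axis. Circles are control replicates 1 and 2, the diamond is control replicate 3, squares are the knockout replicates, and the bar beside each group is its mean with SD (n = 3). The diamond lies away from the circles for JAG2 (86.0 against 14.6 and 15.1), NOTCH3 and HES4, and close to them for NOTCH1 and NOTCH2.

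Among the receptors, NOTCH2 rose in the knockout cells. NOTCH2 (ENSG00000134250, chr1:119911553-120069662), a widely expressed receptor, stood at 109, 93.8 and 118 CPM in the controls and at 164, 154 and 188 CPM in the knockout libraries. All 3 knockout values lay above all 3 controls, and control replicate 3 lay next to control replicate 1. The mean went from 107 ± 12.3 to 169 ± 17.5 CPM (SD, n = 3 each), a log2 fold change of 0.66 (standard error 0.13, 95% interval 0.35 to 0.96, edgeR adjusted p = 0.0219). Without control replicate 3 the log2 fold change was 0.70 with an edgeR adjusted p of 9.88e-07. The call was lost without control replicate 1 or 2 or any 1 knockout replicate and with the replicate block, and the 12 alternatives gave an adjusted p between 9.88e-07 and 0.106.

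NOTCH2 has human-specific partial copies whose reads can be split with it or assigned to it. NOTCH2NLA was counted 24, 21 and 82 times in control and 64, 57 and 51 times in knockout libraries. NOTCH2NLB ranged from 36 to 107 counts over all libraries, NOTCH2NLC from 46 to 123, and NOTCH2NLR had 1 count in 1 library. These were small beside the 9007 to 16610 counts of NOTCH2, and none of the 3 copies tested was called (edgeR adjusted p = 0.478, 0.404 and 0.230). All 3 were called higher by edgeR without control replicate 3, where 32.4% of all genes were called higher. Their log2 fold changes were then 1.47, 1.13 and 1.12, against 0.59, 0.55 and 0.69 with all libraries. How the authors' counting divided shared reads is not given in the sources used here.

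NOTCH1 (ENSG00000148400, chr9:136494433-136546048), the receptor best known from T-cell development, varied least of the receptors among the controls. Its levels were 19.6, 18.9 and 20.02 CPM in control and 21.4, 20.7 and 23.8 CPM in knockout libraries. Every knockout value was above every control value. The log2 fold change of 0.17 had a 95% interval of -0.08 to 0.43 and did not pass the test (edgeR adjusted p = 0.298). Leaving out control replicate 3 changed little, with a log2 fold change of 0.16.

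NOTCH3 (ENSG00000074181, chr19:15159038-15200995), a receptor known from vascular smooth muscle, had its highest level in control replicate 3. It stood at 17.7, 17.0 and 34.7 CPM in the controls and at 11.96, 12.4 and 12.9 CPM in the knockout libraries. The knockout values lay below all controls, and control replicate 3 was 2.00-fold above the mean of the other controls, on the side away from the knockout. With all libraries the log2 fold change was -0.89 (standard error 0.29, 95% interval -1.60 to -0.19, edgeR adjusted p = 0.0834). Without control replicate 3 it was smaller, -0.51, but with an edgeR adjusted p of 1.49e-05, in a range of 1.49e-05 to 0.249 over the 12 alternatives, of which 2 called the gene.

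None of the 4 ligands passed the edgeR test with all 6 libraries. JAG2 and DLL1 had an unadjusted p under 0.05 (34.5% of all genes). Both were called higher by DESeq2, where 11.9% of all genes were higher and 15.0% lower. None passed the edgeR test without control replicate 1 or 2, where 4.89 and 3.71% of all genes did. All 4 passed without control replicate 3, where 32.4% of all genes were higher and 33.2% lower. JAG2 (ENSG00000184916, chr14:105140995-105168776), a transmembrane ligand of the Jagged class, had the largest absolute log2 fold change of the 10 members with all 6 libraries and TMM scaling, although that of HEY1 was larger without control replicate 1 or 2 (-1.62 and -1.55, against 1.404 and 1.43) and with library sizes without TMM scaling (-1.80 against 1.70). It was counted 1417, 1451 and 8310 times in control and 11730, 11589 and 11891 times in knockout libraries, which gave 14.6, 15.1 and 86.0 CPM against 139, 132 and 135 CPM. The knockout libraries were within a narrow band, control replicates 1 and 2 were far below it, and control replicate 3 lay between. The log2 fold change was 1.81 (standard error 0.71, 95% interval 0.09 to 3.53) and did not pass the test (edgeR adjusted p = 0.130).

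Relative to control replicates 1 and 2, JAG2 was 9.12-fold higher in the knockout libraries and 5.80-fold higher in control replicate 3. Relative to control replicate 3, the knockout libraries were 1.57-fold higher. A fit without control replicate 3 gave a log2 fold change of 3.16 (standard error 0.09, 95% interval 2.98 to 3.34, edgeR adjusted p = 7.43e-18). The adjusted p of the 12 alternatives lay between 7.43e-18 and 0.281, and 2 of them called the gene.

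DLL1 (ENSG00000198719, chr6:170282206-170291078), a Delta-like ligand known from somite segmentation, also had control replicate 3 between the other controls and the knockout libraries. Its levels were 9.13, 9.12 and 17.2 CPM in control and 24.3, 22.6 and 24.6 CPM in knockout libraries. The groups did not overlap. The log2 fold change of 1.01 (standard error 0.27, 95% interval 0.36 to 1.66) missed the threshold narrowly (edgeR adjusted p = 0.0505). Without control replicate 3 it was 1.35 with an edgeR adjusted p of 1.21e-11, and 5 of the 12 alternatives called the gene, with adjusted p from 1.21e-11 to 0.174. DLL1 overlaps FAM120B, a protein-coding gene that starts at 170290703. The libraries marked strand, but whether the counting used it is not given in the sources used here.

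DLL3 (ENSG00000090932, chr19:39498947-39508469) is an unusual ligand that stays mostly inside the cell and is known to inhibit Notch rather than activate it. It stood at 9.70, 11.2 and 29.2 CPM in the controls and at 19.3, 20.5 and 18.3 CPM in the knockout libraries. Control replicate 3 lay above every knockout library and the other controls below them. With all libraries the log2 fold change was 0.21 (95% interval -0.80 to 1.22, edgeR adjusted p = 0.754). It was 0.86 without control replicate 3 (edgeR adjusted p = 4.00e-08), and below 0 without control replicate 1 or 2 (-0.08 and -0.01), so the direction of DLL3 depended on which controls were used. Adjusted p values of the 12 alternatives lay between 4.00e-08 and 0.993.

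JAG1 (ENSG00000101384, chr20:10637684-10673999), the ligand whose loss is known to cause Alagille syndrome, was lowest among the controls in control replicate 3. The controls held 55.0, 50.03 and 41.9 CPM and the knockout libraries 42.2, 39.9 and 43.2 CPM. Control replicate 3 fell within the range of the knockout libraries. The log2 fold change of -0.23 (95% interval -0.52 to 0.06) did not pass the test (edgeR adjusted p = 0.229), and without control replicate 3 it was -0.36 (edgeR adjusted p = 0.000328, in a range of 0.000328 to 0.463 over the 12 alternatives).

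On the log2 CPM scale, control replicate 3 lay nearer to the knockout mean than to the mean of the other controls for all 4 ligands and for HES1, which is 5 of the 10 members. The same was true of 58.9% of all genes tested. On that scale it lay nearer to the other controls for the 3 receptors, HES4 and HEY1, although HEY1 in linear CPM was nearer to the knockout.

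**Figure D2:**
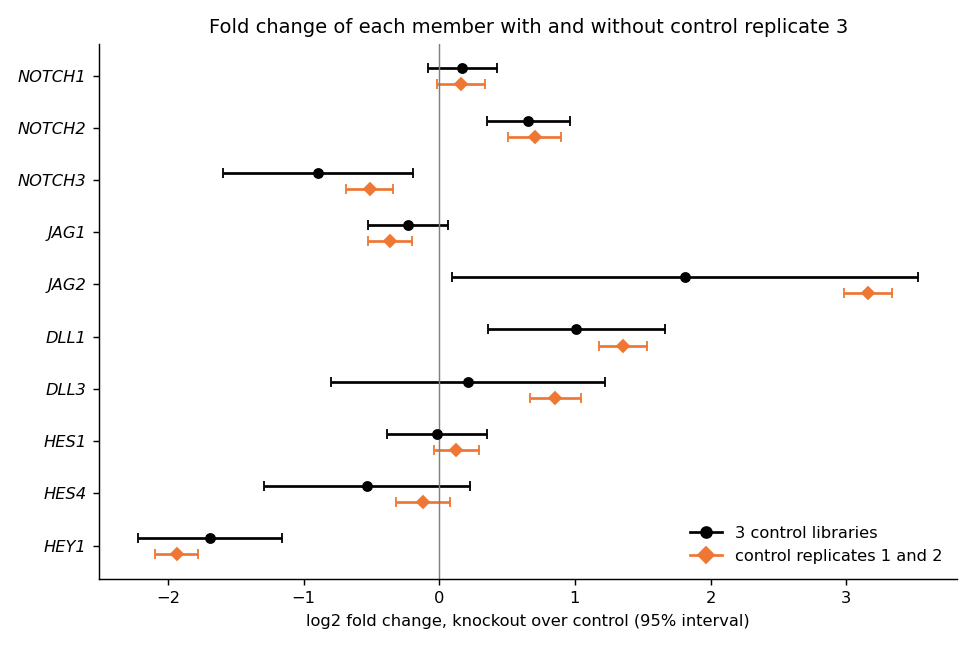
Log2 fold change of each member, knockout over control, with its 95% interval from edgeR. Black circles use all 3 control libraries and orange diamonds control replicates 1 and 2. The intervals of JAG2, DLL3, HES4 and NOTCH3 narrow most when control replicate 3 is left out, and JAG2 moves from 1.81 to 3.16.

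Of the targets, HEY1 fell and HES1 and HES4 did not pass the test. HEY1 (ENSG00000164683, chr8:79764010-79767767), a repressor of the Hairy/Enhancer-of-split family with a YRPW motif, was counted 7288, 7498 and 4328 times in control and 1677, 1896 and 1750 times in knockout libraries. This gave 75.0, 78.0 and 44.8 CPM against 19.9, 21.6 and 19.8 CPM. The knockout libraries were alike and lay well below all controls, and control replicate 3 was between. The mean was 3.23-fold higher in the controls (65.9 ± 18.4 against 20.4 ± 1.01 CPM, SD, n = 3 each), a log2 fold change of -1.69 (standard error 0.22, 95% interval -2.22 to -1.16, edgeR adjusted p = 0.00863).

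Against HEY1 in the knockout libraries, control replicates 1 and 2 were 3.74-fold higher and control replicate 3 was 2.19-fold higher. Without control replicate 3 the log2 fold change was -1.94 (edgeR adjusted p = 3.54e-15). The call was lost without any 1 knockout replicate, with adjusted p of 0.0719, 0.0529 and 0.0699 from edgeR, where the 12 alternatives spanned 3.54e-15 to 0.0719 and 9 of them called the gene.

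HES1 (ENSG00000114315, chr3:194136148-194138732), the most studied Notch target and a repressor of its own promoter, stood at 52.8, 55.3 and 74.6 CPM in the controls and at 59.1, 65.3 and 56.5 CPM in the knockout libraries. The knockout libraries lay between control replicate 3 and the other controls. Means were 60.9 ± 11.9 and 60.3 ± 4.52 CPM (SD, n = 3 each), with a log2 fold change of -0.01 and a 95% interval of -0.38 to 0.36 (edgeR adjusted p = 0.958). Its sign differed between alternatives, with log2 fold changes from -0.13 to 0.13, and none of the 12 called the gene.

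HES4 (ENSG00000188290, chr1:998964-1000097), a close relative of HES1, stood at 120, 147 and 278 CPM in the controls and at 126, 139 and 110 CPM in the knockout libraries. Control replicate 3 was 2.09-fold above the mean of the other controls, and the knockout libraries overlapped with control replicates 1 and 2. The log2 fold change was -0.53 (95% interval -1.29 to 0.22, edgeR adjusted p = 0.275), and without control replicate 3 it was -0.12 (edgeR adjusted p = 0.279, in a range of 0.141 to 0.531 over the 12 alternatives).

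The 3 genes with the library pattern most like each of HES1 and HEY1 were found by Euclidean distance between log2 CPM values centred on their mean over the 6 libraries. Nearest to HES1 were GATA4 (distance 0.05), PELI3 (0.05) and MACROH2A2 (0.08). Nearest to HEY1 were ENSG00000261342 (0.16), CHMP4C (0.18) and TBX15 (0.20). CHMP4C, for example, stood at 5.62, 5.60 and 3.42 CPM in the controls and at 1.58, 1.80 and 1.46 CPM in the knockout libraries, the same order of groups as HEY1.

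Levels were compared between members only after division by exon length, as CPM per kb. In the knockout libraries HES4 was highest (112 ± 13.3), followed by HES1 (29.3 ± 2.19), JAG2 (21.2 ± 0.572), NOTCH2 (10.1 ± 1.05), DLL3 (7.40 ± 0.411), DLL1 (6.24 ± 0.277), JAG1 (4.49 ± 0.182), HEY1 (3.73 ± 0.184), NOTCH1 (1.75 ± 0.127) and NOTCH3 (1.32 ± 0.0505), all CPM per kb as mean ± SD (n = 3). No neighbours in that order overlapped in their knockout values, but the order depends on the exon lengths used. For HEY1 that length was 5487 bases, more than its whole RefSeq span of 3758 bases. Its level per kb, and so its rank, may be understated. In the controls HES4 (162 ± 75.6), HES1 (29.6 ± 5.79) and HEY1 (12.02 ± 3.35) led. NOTCH2 (6.39 ± 0.732), DLL3 (6.39 ± 4.15), JAG2 (6.03 ± 6.42) and JAG1 (5.27 ± 0.712) followed and overlapped with one another, and DLL3 and JAG2 also with HEY1 because of control replicate 3. DLL1 (3.10 ± 1.23) overlapped with its neighbours JAG1 and NOTCH3 (2.46 ± 1.06), and NOTCH1 (1.56 ± 0.0477) was lowest.

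Among the members, the leading ligand was not the same in all libraries, whereas the leading receptor and target were. The sums used here cover only the 3 receptors, 4 ligands and 3 targets among the members. They leave out genes of the wider list described below, such as DLK2, HEY2 and HES6, so the shares are not shares of all Notch ligands or targets. On the scale of CPM per kb, JAG1 made up 41.4 and 37.3% of the ligand sum in control replicates 1 and 2, and 13.4% in control replicate 3. In the knockout libraries JAG1 made up 11.3, 11.1 and 11.9%. JAG2 took 15.9 and 16.4% of the ligand sum in control replicates 1 and 2, 40.0% in control replicate 3, and 54.4, 53.4 and 53.8% in the knockout libraries. Control replicates 1 and 2 were thus led by JAG1, and control replicate 3 and the knockout libraries by JAG2. The ligand sum itself was 14.3, 14.4 and 33.6 CPM per kb in control and 40.1, 38.7 and 39.1 CPM per kb in knockout libraries.

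Among the receptors, NOTCH2 led in every library, with 65.4, 62.8 and 57.2% of the receptor sum in control and 76.6, 75.6 and 77.5% in knockout libraries. NOTCH3 held 18.9, 20.3 and 29.9% in control and 9.97, 10.9 and 9.46% in knockout libraries. Among the 3 target members, HES4 led in every library with 73.2 to 84.8% of their sum. HEY1 held 9.32 and 8.26% in control replicates 1 and 2, 2.79% in control replicate 3, and 2.46 to 2.79% in the knockout libraries. The size of these shares rests on the exon length used for HEY1. For control replicate 3 the low share of HEY1 went with the highest target sum, 293 CPM per kb, against 147 and 172 CPM per kb in the other controls and 129 to 160 CPM per kb in the knockout libraries.

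**Figure D3:**
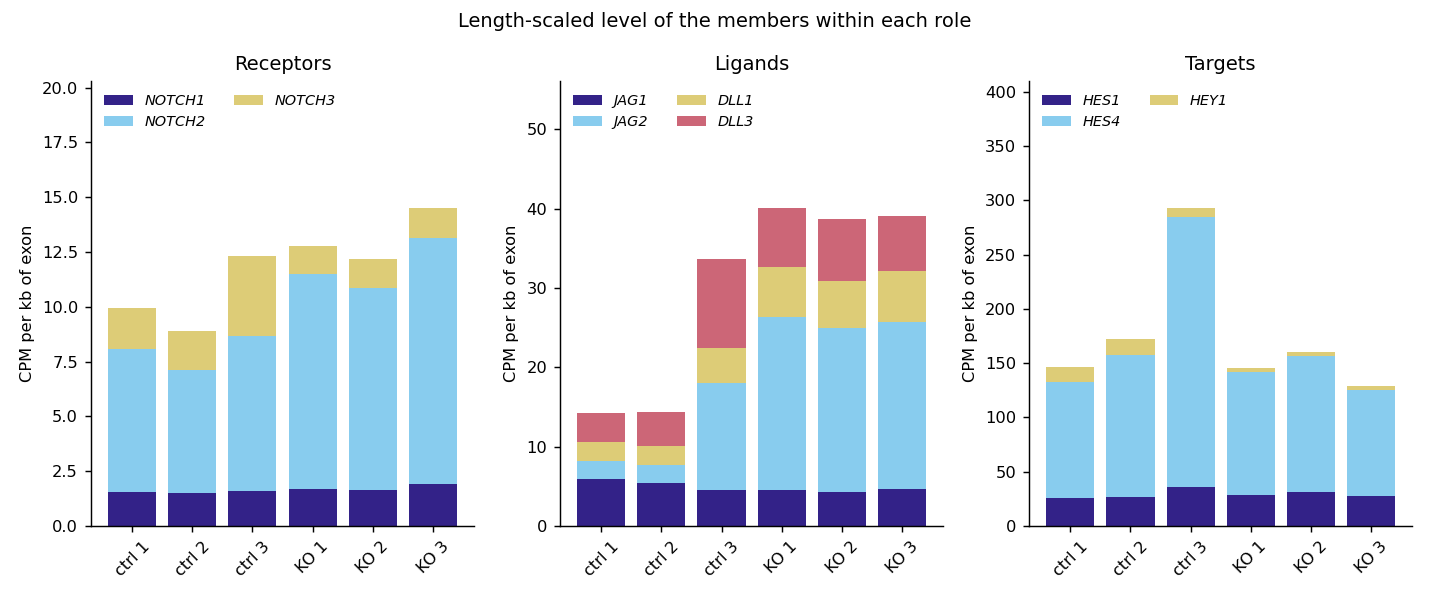
Stacked level of the members in each library by role, in CPM per kb of exon, on axes that start at 0. Bars are single libraries (ctrl, control; KO, FAM60A knockout). The JAG2 segment is small in control replicates 1 and 2 and the largest ligand segment in the other 4 libraries, and the HES4 segment is tallest in control replicate 3.

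A wider list of 69 Notch pathway genes, which includes the 10 members, was read from the same fit. Of these, 66 could be tested, and HES3, HES5 and DLK1 could not. Without the members, 56 genes were tested, of which 3 rose (MAML2, PSENEN and ADAM10) and 8 fell (NOTCH4, DLK2, TLE3, NEURL1B, MIB2, NCOR1, ITCH and TLE1) in the knockout cells by edgeR. The share called in either direction was 19.6% of these 56 genes and 16.6% of all genes tested. The counts by role that follow stand against 7.96% of all genes called higher and 8.67% lower, or 32.4 and 33.2% without control replicate 3, and with so few genes in a role nothing is read from them. In the fit without control replicate 3, 22 of these 56 genes were called higher and 20 lower, against 32.4 and 33.2% of all genes in that fit. Of the 66 genes with the members, edgeR called 2 without control replicate 1, 1 without control replicate 2, and none without knockout replicate 1, 2 or 3, where 15, 17 and 15 had an unadjusted p under 0.05, against 22.6, 25.3 and 23.0% of all genes. In these 5 fits 4.89, 3.71, 0.763, 2.31 and 0.870% of all genes were called. The replicate block called only HEY1 of the 66, where it called 407 of the 20992 genes tested. Each called gene outside the members kept its call in 4 to 7 of the 12 alternatives. Losses named below for single genes add to those in these fits.

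The other receptor and ligand that passed the test were low or modest in level. NOTCH4, a receptor known from endothelium, stood at 3.92, 4.70 and 2.31 CPM in the controls and at 1.35, 1.45 and 1.495 CPM in the knockout libraries (log2 fold change -1.34, standard error 0.29, edgeR adjusted p = 0.0279). DLK2, a Delta-like protein without the domain that activates Notch, stood at 8.48, 9.34 and 9.66 CPM against 4.63, 4.99 and 4.42 CPM (-0.97, standard error 0.15, edgeR adjusted p = 0.0120). The call of NOTCH4 was also lost by limma-voom with quantile normalization. For DLK2 control replicate 3 was level with the other controls, and for NOTCH4 it lay between them and the knockout. DLL4, the endothelial Delta-like ligand, stood at 2.21, 2.44 and 3.67 CPM against 3.06, 3.92 and 3.69 CPM and was not called (0.36 on the log2 scale, edgeR adjusted p = 0.346). It was called in the fit without control replicate 3, at 0.58 (edgeR adjusted p = 0.000657, in a range of 0.000657 to 0.669 over the 12 alternatives).

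Ligand ubiquitin ligases, which drive the endocytosis that lets a ligand pull on its receptor, included 2 of 4 genes that fell and none that rose (8.67% of all genes fell and 7.96% rose). MIB2 stood at 58.2, 63.5 and 52.8 CPM in the controls and at 39.0, 36.1 and 39.1 CPM in the knockout libraries (log2 fold change of -0.61, edgeR adjusted p = 0.0154). NEURL1B stood at 7.57, 7.15 and 5.03 CPM against 3.80, 4.01 and 3.66 CPM (-0.78, edgeR adjusted p = 0.0458). The groups did not overlap for either gene. The call of NEURL1B was also lost without a filter and by limma-voom with quantile normalization.

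Of the 9 genes for receptor cleavage, 2 rose and none fell with all libraries (7.96 and 8.67% of all genes). Without control replicate 3 edgeR called 5 of them higher and 2 lower (32.4 and 33.2% of all genes). PSENEN, the smallest subunit of gamma-secretase, stood at 18.3, 18.7 and 32.4 CPM in the controls and at 46.9, 48.1 and 40.7 CPM in the knockout libraries (log2 fold change 0.97, standard error 0.24, edgeR adjusted p = 0.0423). ADAM10, the protease of the ligand-induced cut, stood at 66.2, 60.2 and 54.1 CPM against 86.0, 76.5 and 87.4 CPM (0.47, edgeR adjusted p = 0.0365). Control replicate 3 lay toward the knockout for PSENEN and away from it for ADAM10. Both calls were also lost with library sizes without TMM scaling, and that of ADAM10 without a filter too. None of the 5 genes for receptor glycosylation was called by edgeR, and 1 had an unadjusted p under 0.05 (34.5% of all genes). DESeq2 called none, where it called 11.9% of all genes higher and 15.0% lower. For these 5 genes, edgeR without control replicate 3 called 2 higher and 1 lower (32.4 and 33.2% of all genes).

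In the nucleus, 1 of 7 genes of the coactivator complex rose and 3 of 12 corepressor genes fell, where 7.96% of all genes rose and 8.67% fell. Without control replicate 3 edgeR called 4 coactivator genes higher and 3 lower. In that fit 2 corepressor genes were called higher and 6 lower (32.4 and 33.2% of all genes). MAML2, a Mastermind-like coactivator, stood at 1.90, 1.54 and 3.19 CPM in the controls and at 6.13, 5.71 and 5.90 CPM in the knockout libraries (log2 fold change 1.42, standard error 0.29, edgeR adjusted p = 0.0260). RBPJ, the DNA-binding partner of Notch, stood at 94.5, 85.9 and 73.2 CPM against 110, 113 and 108 CPM and missed the threshold (0.38, edgeR adjusted p = 0.0648). It passed without control replicate 3 at 0.26 (edgeR adjusted p = 0.00511). With all 6 libraries it also passed by limma-voom with quantile normalization, at 0.40 (limma-voom adjusted p = 0.0382). The 12 alternatives gave an adjusted p of 0.00511 to 0.193, and 2 of them called the gene. TLE3, a Groucho corepressor that HES proteins recruit, stood at 236, 226 and 157 CPM against 104, 118 and 115 CPM (-0.88, edgeR adjusted p = 0.0220). The groups did not overlap for these 3 genes. TLE1, of the same family, fell by 0.40 on the log2 scale (edgeR adjusted p = 0.0453, a call also lost without a filter). NCOR1, a corepressor that can occupy RBPJ without Notch, fell by 0.53 (edgeR adjusted p = 0.0195).

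Of the 10 genes for receptor turnover, ITCH alone passed the test with all libraries, where 4 had an unadjusted p under 0.05 (34.5% of all genes), and edgeR without control replicate 3 called 6 higher and 3 lower. ITCH, a ubiquitin ligase that acts on Notch among other proteins, stood at 36.3, 36.5 and 35.7 CPM in the controls and at 26.5, 26.2 and 24.0 CPM in the knockout libraries (log2 fold change -0.50, standard error 0.09, edgeR adjusted p = 0.0188). Control replicate 3 was close to the other controls for this gene.

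Of the 6 tested HES and HEY family and NRARP genes outside the members, none passed the edgeR test or had an unadjusted p under 0.05 (34.5% of all genes). DESeq2 called 0, where it called 11.9% of all genes higher and 15.0% lower. Without control replicate 3 edgeR called 2 higher and 1 lower (32.4 and 33.2% of all genes). HEY2, a paralog of HEY1, stood at 41.3, 45.6 and 17.2 CPM in the controls and at 20.6, 26.1 and 21.9 CPM in the knockout libraries (log2 fold change of -0.60, edgeR adjusted p = 0.272). HEYL stood at 2.88, 3.31 and 10.4 CPM against 6.33, 7.05 and 6.45 CPM (0.26, edgeR adjusted p = 0.750). In both genes control replicate 3 lay beyond the knockout libraries, and without it both were called by edgeR, HEY2 at -0.96 (adjusted p = 7.96e-09, in a range of 7.96e-09 to 0.592 over the 12 alternatives) and HEYL at 1.06 (4.15e-08, in a range of 4.15e-08 to 0.994). NRARP, a feedback inhibitor of Notch, stood at 22.0, 25.6 and 29.6 CPM against 27.0, 31.0 and 25.6 CPM (0.12, edgeR adjusted p = 0.606). HES5, a target known from neural progenitors, had 0 counts in all 6 libraries, which allows up to 0.0309 to 0.0356 CPM by counting error alone.

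**Figure D4:**
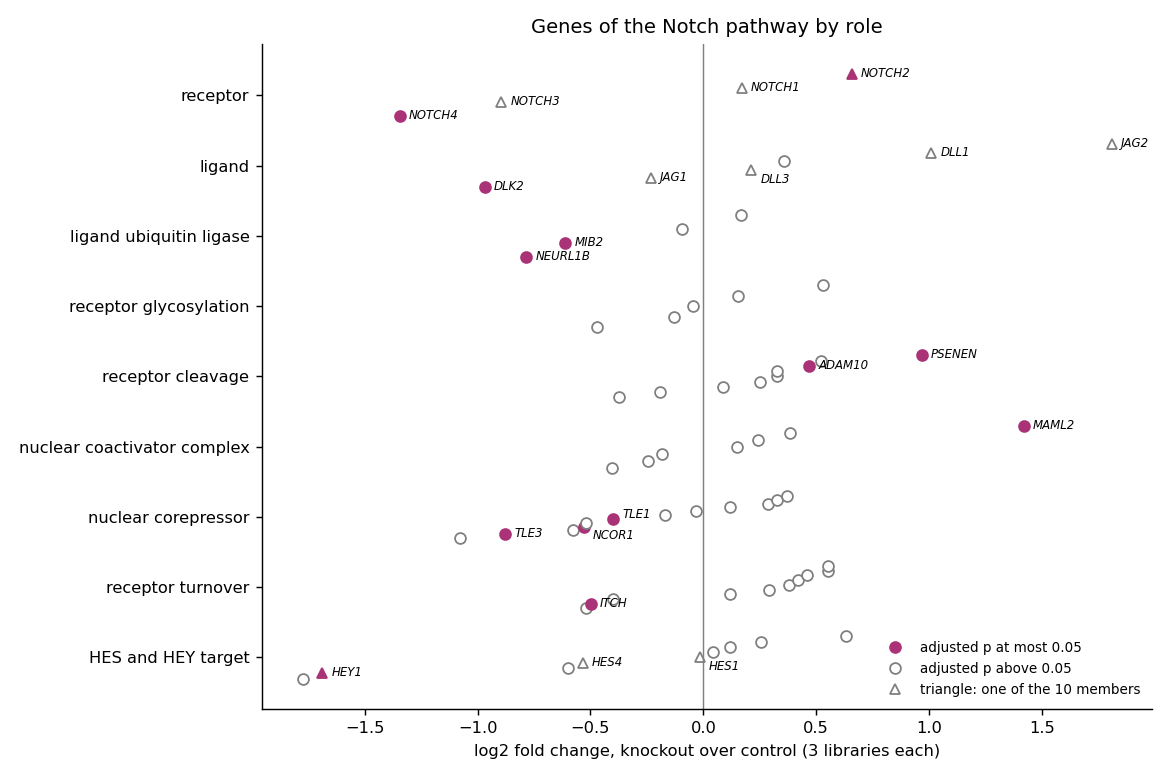
Log2 fold change, knockout over control, of the 66 tested genes of the wider Notch list by role, from edgeR with 3 libraries in each group. Filled symbols passed an adjusted p of at most 0.05, open symbols did not, and triangles are the 10 members. Of the filled symbols 4 lie right of 0 and 9 left of it, and JAG2 at 1.81 is open.

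Markers of cell lines and cell types were read in the same libraries. Their counts stand against 7.96% of all genes called higher and 8.67% lower by edgeR, 11.9 and 15.0% by DESeq2, and 32.4 and 33.2% by edgeR without control replicate 3. The HEK293 lineage list (PAX2, LHX1, NEFM, NEFL, VIM and GAL) was detected in every library, and its sum was 804, 825 and 471 CPM in control and 382, 446 and 367 CPM in knockout libraries. VIM was its most abundant gene and made up most of this sum in every library. VIM stood at 694, 707 and 299 CPM in control and at 264, 309 and 252 CPM in knockout libraries, and was not called. NEFL, the next in level, did not follow it, at 78.6, 80.7 and 143 CPM against 83.85, 96.0 and 82.6 CPM. The sum therefore does not describe the list as a whole. Of the 6 genes LHX1 and NEFM fell and GAL rose. DESeq2 called 4 of the 6, and edgeR without control replicate 3 called 1 higher and 3 lower. The list for MDA-MB-231, the breast cancer line also grown in the study, summed to 414, 424 and 101 CPM in the controls and to 128, 121 and 116 CPM in the knockout libraries, and none of its 6 genes was called by edgeR with all libraries, where 3 had an unadjusted p under 0.05 (34.5% of all genes). DESeq2 called 3 of them, and edgeR without control replicate 3 called 1 higher and 4 lower. Its most abundant gene in control replicates 1 and 2 was ANXA1, and in the other 4 libraries CAV1. ANXA1 stood at 286, 295 and 17.0 CPM in the controls and at 22.1, 19.4 and 19.8 CPM in the knockout libraries. On the log2 CPM scale, control replicate 3 lay nearer to the knockout mean for 4 of the 6 genes (ANXA1, CAV1, TGFBI and AXL). The same was true of 58.9% of all genes tested. For CD44 and S100A4 it lay on the side away from the knockout libraries.

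The fibroblast list (COL1A1, COL3A1, DCN and LUM) summed to 28.1, 29.1 and 23.5 CPM in the controls and to 25.2, 25.4 and 25.4 CPM in the knockout libraries. Within it DCN and LUM rose and COL1A1 fell, DESeq2 called 3 of the 4 genes, edgeR without control replicate 3 called 3 higher and 1 lower, and COL1A1 was the most abundant in every library. DCN was counted 0, 1 and 1 times in control and 30, 33 and 33 times in knockout libraries. The part of these markers in the differences of the Notch genes was not tested.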

How the data were processed

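The 6 RNA-seq libraries of HEK293 cells (3 control, 3 FAM60A knockout) were poly(A)-selected and strand-specific. The authors deposited a table of raw counts, whole numbers for each Ensembl gene. The study's methods name Trimmomatic and Salmon on hg38, the submitters' processing notes name STAR 2.7.10b, featureCounts 2.0.0 and hg38, and the labels name hg19. The annotation release and the strand setting are not given in the sources used here, and these differences could shift counts of overlapping or duplicated genes. All 6 count columns belonged to a sample, and 60878 of 62754 identifiers matched a symbol.

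Libraries were grouped by their labels. Counts were tested with edgeR 4.0.16 (R 4.3.3), although the study used limma: TMM scaling, the filterByExpr filter (minimum count 10), a two-sided quasi-likelihood F-test, and Benjamini-Hochberg adjustment over 20992 genes. Standard errors are the absolute log2 fold change over the square root of F. The fit was tested on simulated data with 200 changed genes. edgeR recovered 97 of 100 genes changed by 1 on the log2 scale and 100 of 100 changed by 2, with 16 false calls. The simulation had a lower dispersion than the 0.0854 of these data and no outlying control. It therefore does not show how the fit behaves with control replicate 3. Totals were 88361827 to 93346824 counts, and floors of 3 counts cover counting error only. Single values were compared by exact permutation tests (scipy 1.17.1). Alternatives were DESeq2 1.42.0, no filter, at least 10 counts in every library, library sizes without TMM, limma-voom after quantile normalization (limma 3.58.1), each library left out, and a replicate block.

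The members and lists were chosen with earlier results of these data known. Named genes were the 10 members, FAM60A, the called genes of the wider list, RBPJ, NOTCH4, DLL4, HES5, HEY2, HEYL, NRARP, the NOTCH2 partial copies, and the 3 genes nearest in pattern to HES1 and to the member with the lowest p. Positions and upstream sequences came from RefSeq (GRCh38.p14), matched by symbol. Exon lengths were unions of GENCODE v44 exons on GRCh37. A further marker list is not reported here.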

Additional observations from a re-analysis of the deposited data

How the results depend on the processing

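The main limit was the choice of libraries. Of the 20992 genes tested, edgeR called 3491, DESeq2 5581 and edgeR with the replicate block 407, and leaving out 1 library gave 167 (without knockout replicate 1) to 14221 (without control replicate 3). Of the 10 members edgeR called 2, DESeq2 5, the replicate block 1 (HEY1), and leaving out 1 library gave 0 to 7. The count of 0 from edgeR arose without knockout replicate 1, 2 or 3, and 7 without control replicate 3. In the fits without knockout replicate 1, 2 or 3, 3 members each time had an unadjusted p under 0.05, against 22.6, 25.3 and 23.0% of all genes. Of the 66 tested genes of the wider list edgeR called 13, the replicate block 1, and leaving out 1 library gave 0 to 49. Here 0 arose without knockout replicate 1, 2 or 3, and 49 without control replicate 3. Without knockout replicate 1, 2 or 3, edgeR gave 15, 17 and 15 listed genes an unadjusted p under 0.05, against 22.6, 25.3 and 23.0% of all genes. FAM60A had a log2 fold change of -0.85, of -0.84 with the replicate block (edgeR adjusted p = 0.0551), and of -0.92 to -0.78 with 1 library left out. Deviations of same-numbered libraries from their group means were nearly uncorrelated (0.00395, 0.0405 and -0.0267 across 21031 genes). Control replicate 3 dominates the deviations of the controls, so this check cannot show whether the numbers pair the samples.

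Reversed directions were those of DLL3 (-0.0837 to 0.857 with 1 library left out), HES1 (-0.01, but 0.0110 with limma-voom and quantile normalization, 0.000609 with the replicate block, -0.13 to 0.13 with 1 library left out), HEYL (-0.0728 to 1.06) and NRARP (-0.0116 to 0.20). The cause was not tested. Library size without TMM moved the median log2 fold change of all genes from -0.01 to -0.12, and called 1235 genes higher and 2668 lower against 1671 and 1820, and the member calls stayed at 1 in each direction. DLL1 passed the edgeR threshold without a filter and with at least 10 counts in every library. No other member changed its call under these 2 filters or under library size without TMM.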

Other observations

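Several genes of the wider list outside the named ones had their extreme value in control replicate 3, and were picked here after their values were seen. DTX1, a Deltex ubiquitin ligase, stood at 0.02, 0.02 and 0.50 CPM per kb of exon in the controls and at 0.26, 0.27 and 0.18 CPM per kb in the knockout libraries. HES7, a member of the segmentation clock, stood at 0.33, 0.49 and 3.88 CPM per kb in the controls and at 2.54, 2.44 and 2.31 CPM per kb in the knockout libraries. HES2 stood at 0.03, 0.02 and 0.33 CPM per kb in the controls and at 0.03, 0.04 and 0.04 CPM per kb in the knockout libraries. Control replicate 3 was on the side of the knockout for DTX1 and HES7 and apart from all other libraries for HES2.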
